A study of Mus musculus with 20 samples.

Results

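The genes described here are the 8 xenobiotic-sensing receptors and regulators Ahr, Ahrr, Arnt, Tiparp, Nr1i2, Nr1i3, Nfe2l2 and Keap1, taken by their symbols from a table of 55487 mouse genes. Each symbol named 1 gene, and all 8 passed the filter on low counts that left 17464 genes for testing. They were measured by bulk RNA-seq of polyA RNA from the small intestine of mouse pups, 5 libraries in each of 4 groups. The groups were control pups (pups of control dams) at 2 weeks, pups of dams with periodontitis at 2 weeks, control pups at 7 weeks and pups of dams with periodontitis at 7 weeks. The pups of dams with periodontitis, an inflammatory disease of the tissue that supports the teeth, are called periodontitis pups below, and the disease was that of the dam. The series set out to compare intestinal gene expression between the offspring of the 2 kinds of dam. Strain, sex, litter, batch and the intestinal segment are not in the labels. Libraries were treated as independent because no litter could be assigned, and p-values measure the spread between these libraries. Pups that shared a dam would not be independent for the dam comparison, and its p-values would then be too small.

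These genes form 3 sensing systems. The aryl hydrocarbon receptor AHR binds planar aromatic chemicals and tryptophan metabolites from diet and microbes, enters the nucleus and pairs with ARNT to switch on genes such as Cyp1a1, while AHRR and TIPARP, themselves products of AHR target genes, restrain it. The pregnane X receptor PXR (Nr1i2) and the constitutive androstane receptor CAR (Nr1i3) pair with RXR and induce cytochromes, conjugating enzymes and transporters that clear drugs and bile acids. KEAP1 holds the transcription factor NRF2 (Nfe2l2) in the cytoplasm and marks it for destruction until oxidants or electrophiles release it to induce antioxidant and detoxifying enzymes.

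In GENCODE M21 on the mouse build GRCm38, Ahr (ENSMUSG00000019256) lies at chr12:35497974-35535038 on the minus strand and Ahrr (ENSMUSG00000021575) at chr13:74211118-74292331 on the minus strand. Arnt (ENSMUSG00000015522) lies at chr3:95434388-95497240 and Tiparp (ENSMUSG00000034640) at chr3:65528410-65555518, both on the plus strand. Nr1i2 (ENSMUSG00000022809) lies at chr16:38248323-38294824 on the minus strand and Nr1i3 (ENSMUSG00000005677) at chr1:171213970-171220701 on the plus strand. Nfe2l2 (ENSMUSG00000015839) lies at chr2:75675513-75704641 and Keap1 (ENSMUSG00000003308) at chr9:21229730-21239361, both on the minus strand.

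The promoters of 7 of the 8 genes were matched in RefSeq (GRCm38.p6), and the 250 bases before each annotated start were searched on both strands for GCGTG, the core of the site that AHR and ARNT bind, and for TGACNNNGC, the core of the antioxidant response element that NRF2 binds. The Ahrr window held 3 copies of GCGTG, beginning 107, 82 and 27 bases before the start. Among 32851 mouse promoter windows of the same length, 2.77% held at least 3 copies and 28.2% at least 1. The windows of Tiparp, Arnt and Keap1 held 1 copy each, and those of Nr1i2, Nr1i3 and Nfe2l2 held none. TGACNNNGC was present 2 times in the Arnt window and 1 time in that of Nfe2l2, and 10.2% of all windows held at least 1 copy. A match is a sequence description only and no binding was measured. The windows of the 2 feedback regulators that AHR induces, of its partner Arnt and of Nfe2l2 are shown 5′ to 3′ on the gene's strand, with matches to either motif in capitals, and end where the GENCODE gene begins if that comes first.
Ahrr, minus strand, chr13:74292332-74292581: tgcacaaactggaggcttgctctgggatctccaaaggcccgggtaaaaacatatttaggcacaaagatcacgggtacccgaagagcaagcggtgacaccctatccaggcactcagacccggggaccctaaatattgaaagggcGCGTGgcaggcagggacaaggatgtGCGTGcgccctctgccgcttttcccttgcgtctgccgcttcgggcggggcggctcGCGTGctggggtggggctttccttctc
Tiparp, plus strand, chr3:65528197-65528409: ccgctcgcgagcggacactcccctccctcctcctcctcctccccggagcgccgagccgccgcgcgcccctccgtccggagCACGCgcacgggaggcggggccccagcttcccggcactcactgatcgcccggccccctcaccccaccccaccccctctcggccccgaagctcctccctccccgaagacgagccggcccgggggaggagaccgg
Arnt, plus strand, chr3:95434140-95434387: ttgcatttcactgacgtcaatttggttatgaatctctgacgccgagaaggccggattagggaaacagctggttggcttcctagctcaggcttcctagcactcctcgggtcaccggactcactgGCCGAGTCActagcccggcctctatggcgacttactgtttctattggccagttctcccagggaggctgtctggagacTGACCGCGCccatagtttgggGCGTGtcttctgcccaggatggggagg
Nfe2l2, minus strand, chr2:75704664-75704913: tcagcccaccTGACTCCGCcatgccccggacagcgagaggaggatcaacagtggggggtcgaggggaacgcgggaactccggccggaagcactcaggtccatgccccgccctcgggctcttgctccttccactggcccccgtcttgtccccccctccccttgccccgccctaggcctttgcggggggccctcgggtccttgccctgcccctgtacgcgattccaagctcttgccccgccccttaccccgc
The 3 Ahrr matches all read GCGTG on the gene's strand, whereas the Tiparp match reads CACGC, the same motif on the other strand.

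Total counts ran from 14882204 to 42563229 per library. Control library 5 at 2 weeks stood apart: it had the lowest total, and mitochondrial transcripts made up 29.4% of its counts against 3.99% to 9.15% in the other 19 libraries. Where leaving it out changed the call of a gene described below or moved its fold by over 1.5 times, both values are given. The markers of epithelium were present in every library, with a summed level of 3405 to 7037 CPM at 2 weeks and 7778 to 16474 CPM at 7 weeks, where CPM is the count per mega counts of the library after TMM scaling. Enterocyte marker levels differed between libraries at 2 weeks. The summed level of 5 genes of the weaned enterocyte was 1798, 2165, 711, 530 and 609 CPM in periodontitis libraries 1 to 5, against 2363 to 4972 CPM in control libraries. The summed level of 5 genes of the suckling enterocyte was 4369 to 5245 CPM in periodontitis libraries 3 to 5 and at most 2418 CPM in every other 2-week library. In whole tissue, fewer cells of a type and less RNA per cell cannot be told apart.

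Levels of different genes were compared per kilobase of exon. Over the 20 libraries Nfe2l2 had the highest mean level at 71.8 CPM per kb, followed by Nr1i2 at 44.6, Keap1 at 13.5, Nr1i3 at 11.3, Tiparp at 8.68, Arnt at 4.15 and Ahr at 3.55 CPM per kb. Ahrr was far lower, at 0.118 CPM per kb, and its 10 to 75 counts per library make it the least precise of the 8 genes.

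**Figure D1:**
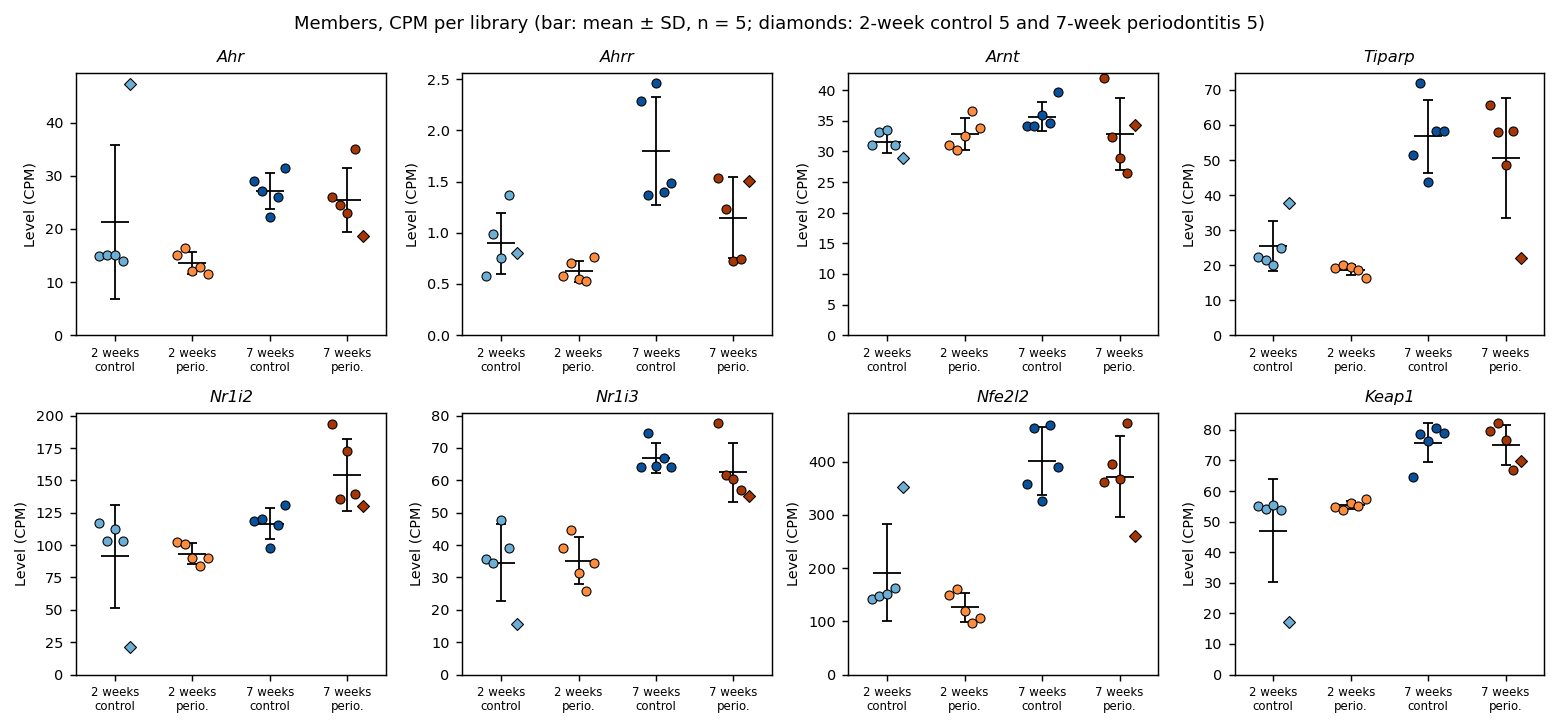
Level of each of the 8 genes (CPM, linear axis from 0) in every library of the 4 groups; points are libraries, bars are the mean ± SD (n = 5) and diamonds mark control library 5 at 2 weeks and periodontitis library 5 at 7 weeks. Tiparp, Nr1i3 and Nfe2l2 are higher at 7 weeks in most libraries, Arnt stays between 26.5 and 42.0 CPM throughout, and the 2-week diamond lies far from its group for Ahr (47.2 CPM), Nr1i2 (21.1 CPM), Nfe2l2 (353 CPM) and Keap1 (17.1 CPM).

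Age was the comparison in which these genes differed. From 2 to 7 weeks 5 of the 8 rose in control pups and 6 of the 8 rose in periodontitis pups, and none fell. Tiparp, Nfe2l2, Nr1i3 and Ahrr rose in both. The median change of the 8 genes was 0.82 on the log2 scale in control pups and 0.86 in periodontitis pups, against -0.13 and -0.11 over all genes tested. Age changed much of the transcriptome: 27.1% of tested genes rose and 34.4% fell in control pups, and 30.4% rose and 35.7% fell in periodontitis pups (edgeR adjusted p under 0.05 over all genes; 61.5% and 66.1% in either direction). The shares of the 8 genes that rose are to be read against 27.1% and 30.4%, and such counts over a chosen list carry no test. Tissue markers moved over the same interval: the summed level of T cell and intraepithelial lymphocyte genes was 4.58 to 14.2 CPM at 2 weeks and 91.9 to 331 CPM at 7 weeks, and that of pancreatic enzyme genes 135 to 1473 CPM and 5.52 to 11.53 CPM. Regional markers differed as well: 5 genes of the distal intestine summed to 649 to 1049 CPM in control and 309 to 962 CPM in periodontitis pups at 2 weeks and to 258 to 421 CPM at 7 weeks. Of the 5 distal genes 3 fell in each kind of pup, while 0 rose in control and 1 rose in periodontitis pups (edgeR adjusted p under 0.05). Their median log2 changes were -4.61 and -2.28. Fgf15, a bile acid-induced hormone of the ileum, had no count in any 7-week library. Fabp6, another distal gene, had none in 7-week periodontitis pups. The summed level of proximal intestine genes was 755 to 2291 CPM at 2 weeks and 317 to 1047 CPM at 7 weeks. Of these 4 genes, however, 2 rose and 2 fell in each kind of pup. The part of tissue composition and of the segment sampled in the age changes was not tested.

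**Figure D2:**
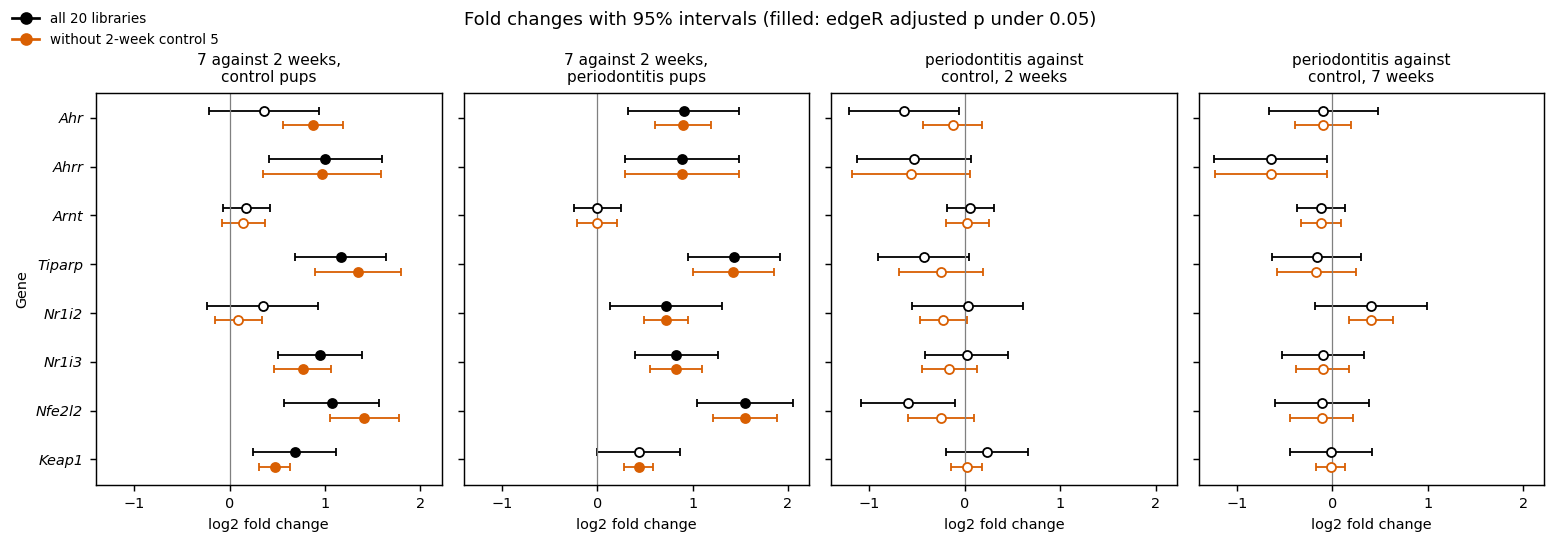
Log2 fold changes of the 8 genes with 95% intervals for age in each kind of pup and for dam at each age, from all 20 libraries (black) and without control library 5 at 2 weeks (orange); filled points have an edgeR adjusted p under 0.05. Filled points appear in the age panels and not in the dam panels, and without that library Ahr joins the filled genes in control pups (0.87) and Keap1 those in periodontitis pups (0.43).

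In the AHR system, Ahr measured 14.97, 15.18, 15.14, 14.02 and 47.25 CPM in control libraries 1 to 5 at 2 weeks and 15.01, 16.45, 12.11, 12.86 and 11.49 CPM in the periodontitis libraries. At 7 weeks the values were 28.92, 27.17, 22.24, 26.04 and 31.43 CPM in control pups and 26.03, 24.56, 23.04, 35.02 and 18.74 CPM in periodontitis pups. With the exception of control library 5, every 2-week library lay below every 7-week library. In periodontitis pups Ahr rose by 0.91 ± 0.28 (log2 fold change ± SE; edgeR adjusted p = 0.0076). In control pups the change was 0.36 ± 0.28 (edgeR adjusted p = 0.263) with all libraries and 0.87 ± 0.15 (edgeR adjusted p = 5.82e-05) without control library 5, a setting in which 69.9% of all genes passed in control pups and 75.4% in periodontitis pups.

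Tiparp, which encodes the ADP-ribosyltransferase that marks AHR for degradation, was at 22.37, 21.51, 20.15, 24.98 and 37.75 CPM in control pups at 2 weeks and at 19.24, 20.09, 19.36, 18.57 and 16.39 CPM in periodontitis pups. At 7 weeks Tiparp was at 51.3, 72.0, 43.7, 58.3 and 58.4 CPM in control pups and 65.8, 58.1, 48.6, 58.3 and 22.1 CPM in periodontitis pups. All 7-week libraries but 1 exceeded all 2-week libraries. The exception, periodontitis library 5, was at 0.384 times the mean of the other 4 libraries of its group. Tiparp rose by 1.17 ± 0.23 in control pups (edgeR adjusted p = 0.00024) and by 1.43 ± 0.23 in periodontitis pups (edgeR adjusted p = 2.46e-05).

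Ahrr, the repressor that competes with AHR for ARNT, was at 0.581, 0.989, 0.750, 1.36 and 0.805 CPM in control pups at 2 weeks and at 0.529 to 0.760 CPM in periodontitis pups. In the 7-week groups it was at 1.37 to 2.46 CPM in control pups and at 0.728 to 1.53 CPM in periodontitis pups. The control groups did not overlap between ages, although the highest 2-week value (1.36 CPM) and the lowest 7-week value (1.37 CPM) nearly touched. Ahrr rose by 1.00 ± 0.28 in control pups (edgeR adjusted p = 0.0049) and by 0.89 ± 0.29 in periodontitis pups (edgeR adjusted p = 0.0107).

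Arnt, the shared partner of AHR and of the hypoxia factors, had the narrowest range for its level. It measured 29.0 to 33.6 CPM in control and 30.2 to 36.7 CPM in periodontitis pups at 2 weeks, then 34.1 to 39.8 CPM in control and 26.5 to 42.0 CPM in periodontitis pups. Its age change was 0.18 ± 0.12 in control pups (95% interval -0.07 to 0.42) and 0.00 ± 0.12 in periodontitis pups (95% interval -0.25 to 0.25), neither past the threshold in edgeR. Unlike Ahr, Arnt in control library 5 (29.0 CPM) lay close to the other control libraries. The difference in age course between Ahr and Arnt was not tested.

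Of the nuclear receptors, Nr1i3 (CAR) rose in both kinds of pup. It was at 35.7, 34.6, 47.9, 39.1 and 15.5 CPM in control pups at 2 weeks and at 39.2, 44.7, 31.5, 25.8 and 34.6 CPM in periodontitis pups. In the 7-week groups it reached 64.1 to 74.7 CPM in control and 55.2 to 77.8 CPM in periodontitis pups, above every 2-week library. The rise was 0.95 ± 0.21 in control pups (edgeR adjusted p = 0.00068) and 0.83 ± 0.21 in periodontitis pups (edgeR adjusted p = 0.0018).

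Nr1i2 (PXR) followed another course. It was at 117, 103, 112, 103 and 21.1 CPM in control pups at 2 weeks and at 102, 101, 89.7, 84.2 and 90.3 CPM in periodontitis pups. Its 7-week values were 118, 120, 97.7, 115 and 131 CPM in control pups and 194, 135, 172, 140 and 130 CPM in periodontitis pups. The control libraries overlapped between ages, whereas every periodontitis library was higher at 7 than at 2 weeks. Nr1i2 rose by 0.72 ± 0.28 in periodontitis pups (edgeR adjusted p = 0.0291). In control pups the change was 0.35 ± 0.28 (edgeR adjusted p = 0.29), and 0.09 ± 0.12 without control library 5. The difference between these age changes was 0.38 ± 0.39 (95% interval -0.45 to 1.20, edgeR adjusted p = 0.787), so the 2 kinds of pup were not shown to differ. The rise in periodontitis pups missed the threshold when any 1 of 5 libraries was left out: 0.70, 0.68 and 0.71 without periodontitis library 3, 4 or 5 at 2 weeks and 0.62 and 0.68 without periodontitis library 1 or 3 at 7 weeks (edgeR adjusted p = 0.0545, 0.0613, 0.0537, 0.0748 and 0.0587). With no filter on low counts it also missed (0.65 ± 0.28, edgeR adjusted p = 0.0669). Without control library 5 at 2 weeks, whose spread enters the shared estimate, it was 0.72 ± 0.11 (edgeR adjusted p = 1.16e-05).

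In the NRF2 system, Nfe2l2 had the largest rise of the 8 genes in periodontitis pups. It was at 142, 147, 151, 162 and 353 CPM in control pups at 2 weeks and at 149, 161, 120, 96.8 and 106 CPM in periodontitis pups. Its 7-week values were 358, 463, 326, 468 and 389 CPM in control pups and 362, 395, 368, 473 and 260 CPM in periodontitis pups. Apart from control library 5, no 2-week library exceeded 162 CPM and no 7-week library fell below 260 CPM. The rise was 1.07 ± 0.24 in control pups (edgeR adjusted p = 0.00076) and 1.55 ± 0.24 in periodontitis pups (edgeR adjusted p = 1.74e-05). Without control library 5 the rise in control pups was 1.41 ± 0.17.

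Keap1, the inhibitor of NRF2, was at 55.1, 54.1, 55.5, 53.7 and 17.1 CPM in control pups at 2 weeks and at 54.9, 53.8, 55.9, 55.2 and 57.4 CPM in periodontitis pups. At 7 weeks it was at 64.7 to 80.8 CPM in control pups and at 66.9 to 82.4 CPM in periodontitis pups. The 2-week libraries other than control library 5 lay within 4 CPM of each other and below all 7-week libraries. Keap1 rose by 0.68 ± 0.21 in control pups (edgeR adjusted p = 0.0079), and its change of 0.44 ± 0.21 in periodontitis pups missed the threshold (edgeR adjusted p = 0.0709) but passed by DESeq2 (0.47, adjusted p = 0.036). With a fit to the compared groups alone the rise in control pups missed (0.65 ± 0.27, edgeR adjusted p = 0.0641) and that in periodontitis pups passed (0.44 ± 0.09, edgeR adjusted p = 0.000926). Without control library 5, whose spread enters the shared estimate, the changes were 0.47 ± 0.08 and 0.43 ± 0.07 (edgeR adjusted p = 3.95e-05 and 3.55e-05). Nfe2l2 thus changed more than its inhibitor in each kind of pup, by point estimates whose difference was not tested.

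Between the 2 kinds of dam none of the 8 genes passed the threshold at 2 weeks, where 0.0286% of all tested genes did (5 of 17464, edgeR adjusted p under 0.05). At an unadjusted p under 0.05 there were 2, Ahr and Nfe2l2, both lower in periodontitis pups, where 14.4% of all genes had such a p, and DESeq2 called 0 of the 8 and 3.43% of all genes. Ahr differed by -0.64 ± 0.28 (edgeR adjusted p = 0.299) and Nfe2l2 by -0.59 ± 0.24 (edgeR adjusted p = 0.256). Without control library 5 these differences were -0.13 ± 0.15 and -0.25 ± 0.17. Nfe2l2 was below every control library in periodontitis libraries 3, 4 and 5, the libraries with the lowest levels of the weaned enterocyte genes. The part of maturity or tissue composition in this was not tested.

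Tiparp was the only gene of the 8 whose 2-week groups did not overlap, with 16.39 to 20.09 CPM in periodontitis pups against 20.15 to 37.75 CPM in control pups. The groups did not overlap in 7.25% of all tested genes. The nearest libraries were separated by less than 0.1 CPM, and the difference of -0.43 ± 0.23 did not pass (edgeR adjusted p = 0.393). Without control library 5 it was -0.25 ± 0.21. Differences at 2 weeks for the other 5 genes ran from -0.53 ± 0.29 for Ahrr to 0.23 ± 0.21 for Keap1. That of Keap1 was 0.02 ± 0.08 without control library 5.

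At 7 weeks none of the 8 genes passed the threshold between dams either, where 0.0115% of tested genes did (2 of 17464), and DESeq2 called 0 of the 8 and 0.143% of all genes. At an unadjusted p under 0.05 there was 1, Ahrr, which was lower in periodontitis pups by a log2 fold change of -0.64 ± 0.28 (edgeR adjusted p = 1). Of all genes 3.33% had an unadjusted p under 0.05 at 7 weeks. The ranges of Ahrr overlapped, from 0.728 to 1.53 CPM in periodontitis and from 1.37 to 2.46 CPM in control pups. Nr1i2 was higher in 4 of 5 periodontitis libraries than in any control library, with a difference of 0.41 ± 0.28 (95% interval -0.18 to 0.99, edgeR adjusted p = 1). Without control library 5 at 2 weeks, whose spread enters the shared estimate, it was 0.40 ± 0.11 (95% interval 0.17 to 0.63). In that setting its edgeR p was 0.00166 unadjusted and 0.413 adjusted. With all libraries the other 6 genes differed by -0.17 to -0.02 on the log2 scale. Their 95% intervals reached from -0.67 to 0.48. Some tissue marker levels also separated the 7-week libraries. Proximal intestine genes summed to 317 to 395 CPM in periodontitis libraries 1 to 4, 1047 CPM in library 5 and 456 to 643 CPM in control pups. The mean log2 CPM of 6 adipocyte genes was 2.62 to 3.85, -0.58 and -0.08 to 0.90 in the same order. Between dams edgeR called 0 of these marker genes. Their part in the dam differences was not tested.

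The difference between the dam effects at 7 and 2 weeks was past the threshold for 0.0229% of tested genes (4 of 17464; 0.372% by DESeq2) and for none of the 8 genes by edgeR or DESeq2, and for none at an unadjusted p under 0.05, against 8.8% of all genes. The estimate for Nr1i2 depended on the libraries left out. Control library 5 at 2 weeks (21.1 CPM) and periodontitis library 5 at 7 weeks (130 CPM) had the lowest Nr1i2 of their groups. Leaving out either one therefore raises the estimate. The estimate was 0.63 ± 0.16 without control library 5 at 2 weeks (edgeR adjusted p = 0.182). Without both that library and periodontitis library 5 at 7 weeks it was 0.69 ± 0.15 (edgeR adjusted p = 0.0384), the only one of the 8 genes past the threshold in that setting, where 0.899% of tested genes passed. In the same setting the dam difference of Nr1i2 was -0.23 ± 0.11 at 2 weeks and 0.47 ± 0.11 at 7 weeks (edgeR adjusted p = 0.295 and 0.072).

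**Figure D3:**
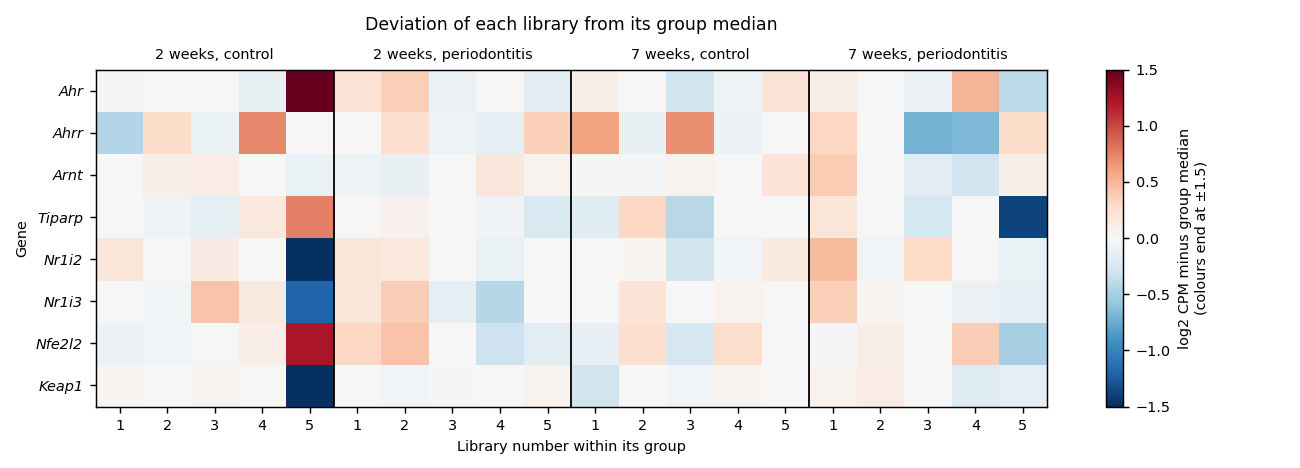
Deviation of each library from the median of its own group (log2 CPM) for the 8 genes, in columns by library number and group; red is above and blue below the group median, and colours end at ±1.5. Control library 5 at 2 weeks is red for Ahr, Tiparp and Nfe2l2 and blue for Nr1i2, Nr1i3 and Keap1, and periodontitis library 5 at 7 weeks is blue for Tiparp (0.384 times its group's other libraries).

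Control library 5 at 2 weeks split the 8 genes. Against the mean of control libraries 1 to 4, Ahr was at 3.19 times, Nfe2l2 at 2.35 times and Tiparp at 1.70 times. Arnt at 0.899 times and Ahrr at 0.874 times were close to their group, while Nr1i3 was at 0.395, Keap1 at 0.314 and Nr1i2 at 0.193 times. The mitochondrial share of 29.4% and the low total moved with these values, and their part was not tested. Periodontitis library 5 at 7 weeks showed lower Tiparp (0.384 times), Nfe2l2 (0.651 times) and Ahr (0.690 times) than the mean of its group's other libraries. Keap1 there was at 0.913 times and Arnt at 1.06 times. The epithelial markers of this library summed to 7778 CPM against 10899 to 16474 CPM in the other 7-week libraries. Its proximal intestine markers summed to 1047 CPM, against 317 to 395 CPM in periodontitis libraries 1 to 4 and 456 to 643 CPM in control pups. Its endothelial markers summed to 52.5 CPM against 15.9 to 39.0 CPM, and its macrophage markers to 53.6 CPM, within the 14.9 to 61.2 CPM of the others. Their part in the lower values was not tested.

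The deviations from the group means of log2 CPM described how the genes varied together within groups. Over 20 libraries Ahr and Nfe2l2 had a Pearson correlation of 0.89, which was 0.74 over the 19 libraries without control library 5. Tiparp and Nfe2l2 gave 0.75 and 0.70, and Nr1i2 and Nr1i3 gave 0.88 and 0.59. Nr1i2 and Keap1 correlated at 0.94 over 20 libraries but at 0.22 without control library 5, and Ahr and Keap1 at -0.87 and -0.25. All genes of a library share its depth and composition, so these values are descriptions.

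The genes most like each member by the same measure were drawn from up to 8818 tested genes of moderate or high level. Nfe2l2 was most like Cycs, Atg5 and Sult1b1 (correlation 0.97 each over 20 libraries, 0.94 each over 19), and Tiparp was most like Gramd1c, Eif2ak2 and Gas2l3 (0.96, 0.95 and 0.95, and 0.95, 0.94 and 0.94 over 19). Ahr was most like Stag2, Impad1 and Bzw1 (0.97 each, and 0.90, 0.88 and 0.87 over 19). For Keap1, with Tmem115, Atg4b and Pik3r2 (0.99 each), and Nr1i2, with Btnl4, Wipi2 and Tbc1d22a (0.99, 0.98 and 0.98), the values fell to between 0.80 and 0.85 over 19 libraries. Nr1i3 was most like Gpt, Psd4 and Vapb (0.93 each, 0.79 to 0.80 over 19). Arnt was most like Washc2, Gtf2ird1 and Osbpl2 (0.89, 0.83 and 0.81). Ahrr was most like AU020206, Lss and Slco3a1 (0.81, 0.78 and 0.77).

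**Figure D4:**
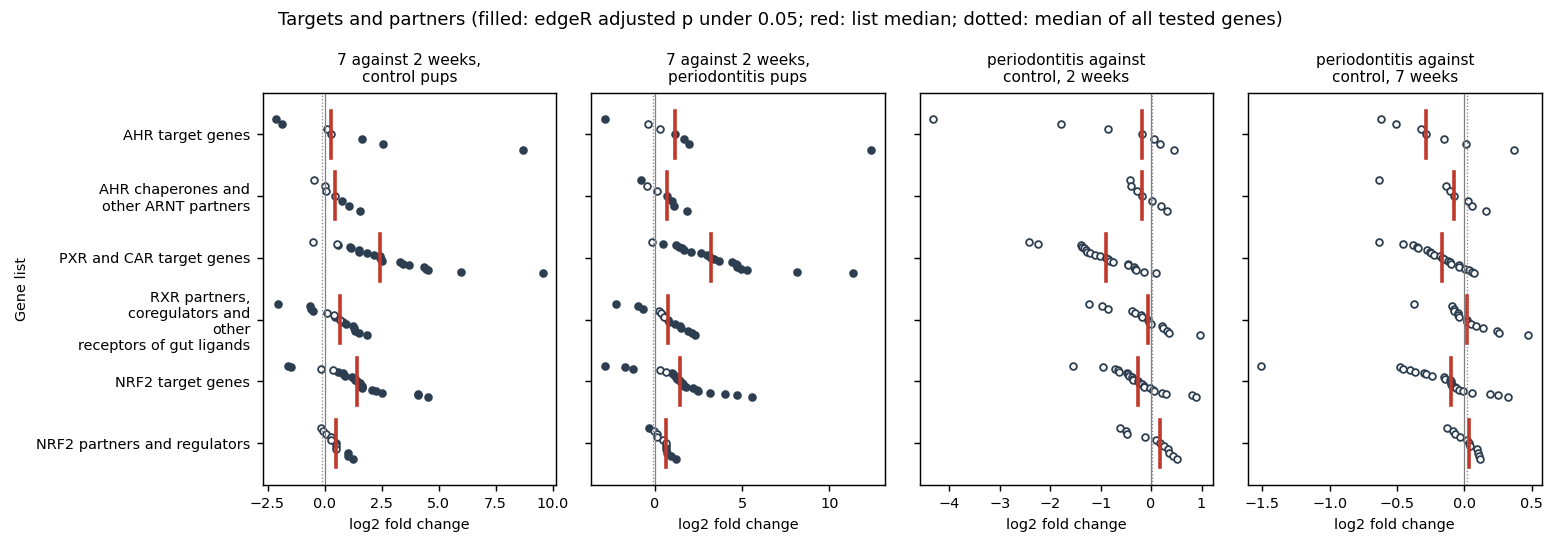
Log2 fold changes of tested genes in 6 lists of targets and partners, in 4 panels for age in each kind of pup and dam at each age; filled points have an edgeR adjusted p under 0.05, red lines are list medians and the dotted line is the median of all tested genes. The PXR and CAR targets lie to the right in both age panels (medians 2.45 and 3.23) and mostly to the left between dams at 2 weeks (median -0.90), where no point is filled.

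Most targets of PXR and CAR rose with age. Of 21 tested genes 19 rose and none fell in control pups, and 20 rose and none fell in periodontitis pups, with median log2 changes of 2.45 and 3.23. Of all tested genes 27.1% rose and 34.4% fell in control pups, and 30.4% rose and 35.7% fell in periodontitis pups. The age counts of every list below are to be read against these shares. Cyp3a11, the main intestinal cytochrome of the PXR response, was at 248 to 498 CPM in control and 36.0 to 301 CPM in periodontitis pups at 2 weeks, and at 3845 to 8919 CPM in all 7-week libraries. It rose by 4.35 ± 0.46 in control pups (edgeR adjusted p = 4.44e-07) and by 4.91 ± 0.48 in periodontitis pups (edgeR adjusted p = 8.22e-08). Cyp2b10, a CAR target, was at 9.22 to 35.6 CPM in control pups at 2 weeks and at 950 to 1577 CPM in all 7-week libraries. Gstm1, a glutathione transferase also counted among the NRF2 targets, rose by 4.53 ± 0.30 and 4.73 ± 0.30. Abcb1a, the P-glycoprotein pump, rose in periodontitis pups (1.20 ± 0.31, edgeR adjusted p = 0.0019), and its change in control pups was 0.55 ± 0.30 (edgeR adjusted p = 0.117), or 0.74 ± 0.28 without control library 3 at 7 weeks (edgeR adjusted p = 0.0288). The cytochromes of the 2c and 3a families and the glutathione transferases have close paralogs, so the split of reads among them is uncertain. The summed level of the epithelial markers was higher in every 7-week than in every 2-week library, and their part in these changes was not tested.

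At 2 weeks 20 of the 21 PXR and CAR targets had lower estimates in periodontitis pups, with a median of -0.90 against 0.02 over all genes. By edgeR 0 passed the threshold and 15 had an unadjusted p under 0.05, all lower, against 14.4% of all genes in either direction. Without periodontitis library 2 at 2 weeks edgeR called 387 of all genes and 8 of these targets, all lower, among them Cyp2b10 (-3.26 ± 0.77, edgeR adjusted p = 0.0294). Other fits called fewer of them. Without periodontitis library 1 at 2 weeks 1 was called. Without control library 5 at 2 weeks 0 were called, without periodontitis library 5 at 7 weeks 1, and without both 1. DESeq2 called 5, where it called 3.43% of all genes. In periodontitis libraries 1 to 5 Cyp2b10 measured 7.35, 13.2, 0.710, 0.205 and 0.268 CPM, so the low values were those of libraries 3 to 5. Cyp3a11 was at 288, 301, 183, 36.0 and 78.1 CPM in the same order. Of the receptors, Nr1i2 differed by 0.03 ± 0.28 and Nr1i3 by 0.02 ± 0.21 between dams at 2 weeks, or by -0.22 ± 0.12 and -0.16 ± 0.14 without control library 5. Libraries 3 to 5 were also those with 530 to 711 CPM of weaned and 4369 to 5245 CPM of suckling enterocyte genes. Their epithelial markers summed to 3405 to 3822 CPM against 4329 to 7037 CPM in the other 2-week libraries. In the same comparison distal intestine genes summed to 309 to 420 against 649 to 1049 CPM and proximal ones to 755 to 1163 against 1612 to 2291 CPM. Liver genes summed to 140 to 186 against 16.2 to 65.6 CPM and smooth muscle genes to 1904 to 2877 against 884 to 1883 CPM. The part of these markers in the lower target levels was not tested. At 7 weeks 17 of 21 targets had lower estimates, with a median of -0.17, and 0 passed the threshold by edgeR or DESeq2 or had an unadjusted p under 0.05.

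**Figure D5:**
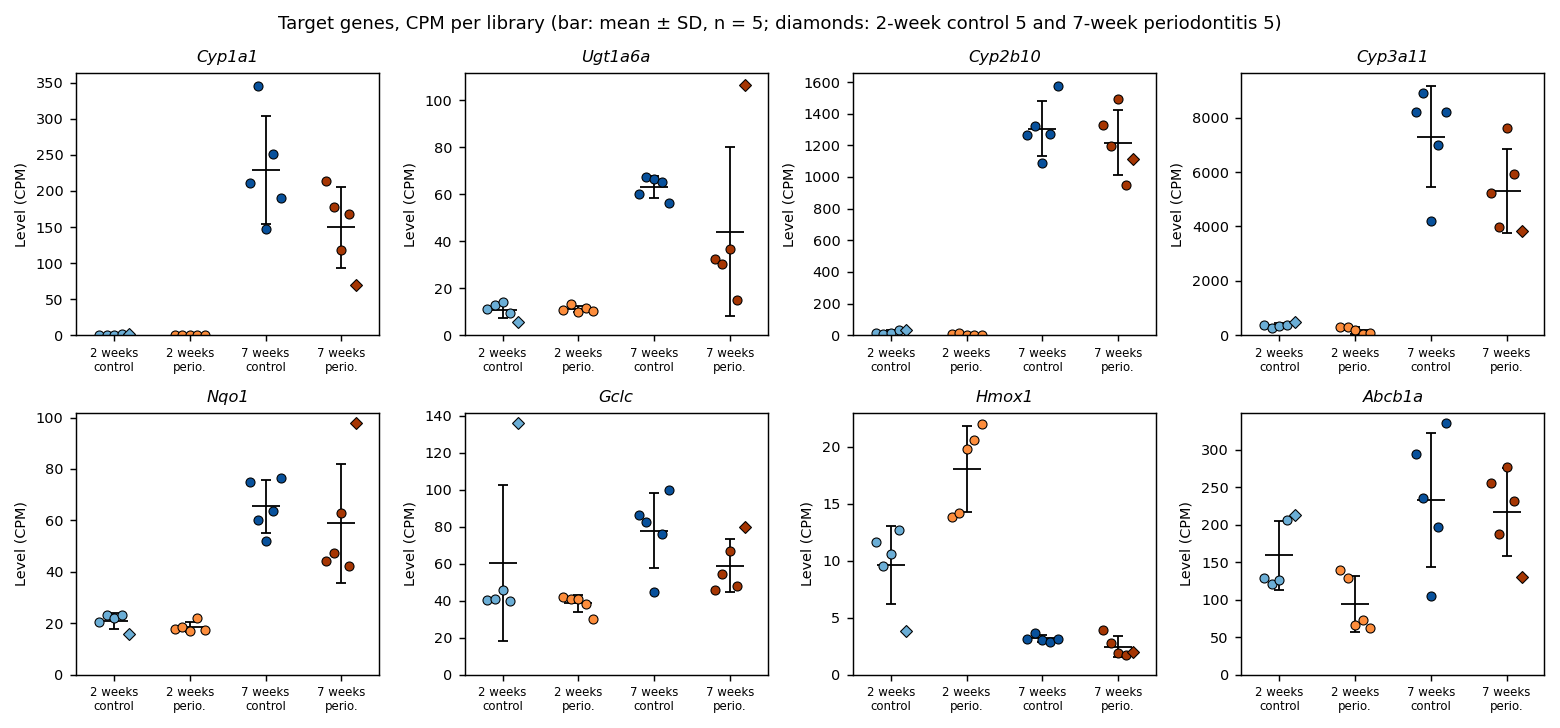
Level (CPM, linear axis from 0) of 8 target genes in every library of the 4 groups; points are libraries, bars the mean ± SD (n = 5) and diamonds control library 5 at 2 weeks and periodontitis library 5 at 7 weeks. Cyp1a1, Cyp2b10 and Cyp3a11 are near the axis at 2 weeks and at 69.3 to 8919 CPM at 7 weeks, and Hmox1 runs the other way, from between 3.86 and 21.997 CPM down to between 1.68 and 3.89 CPM.

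Of the AHR targets 7 of 10 were tested. In control pups 3 rose and 2 fell with age, and in periodontitis pups 4 rose and 1 fell. Of all genes 27.1% and 30.4% rose and 34.4% and 35.7% fell. Without control library 5 at 2 weeks 8 targets were tested. Of these 4 rose and 2 fell in control pups, and 5 rose and 1 fell in periodontitis pups. In that setting 69.9% and 75.4% of all genes passed in either direction. Cyp1a1, the classic AHR-induced cytochrome, was close to undetected at 2 weeks, with 0.0227 to 1.69 CPM in control and 0 to 0.0639 CPM in periodontitis pups. At 7 weeks it was at 211, 346, 147, 252 and 191 CPM in control pups and at 214, 177, 118, 168 and 69.3 CPM in periodontitis pups. It rose in both (edgeR adjusted p = 1.86e-07 and 2.16e-08), and with so few counts at 2 weeks its fitted fold depends on the prior count and is not given. Most of the 2-week counts in control pups lay in libraries 4 and 5 (1.52 and 1.69 CPM). Between dams Cyp1a1 did not pass by edgeR at 2 weeks (adjusted p = 0.0975) or 7 weeks (-0.62 ± 0.59, adjusted p = 1). Ugt1a6a rose by 2.55 ± 0.36 and 1.97 ± 0.35, though its reads share exons with other Ugt1a genes. The rise in periodontitis pups was 1.33 ± 0.23 without periodontitis library 5 at 7 weeks, where Ugt1a6a was at 107 CPM against 14.9 to 36.6 CPM in libraries 1 to 4. Control pups at 7 weeks were at 56.3 to 67.2 CPM. The dam difference of Ugt1a6a at 7 weeks was -0.51 with all libraries, which did not pass. Without that library it was -1.14 ± 0.24 (edgeR adjusted p = 0.0845). Without control library 5 at 2 weeks as well it was -1.13 ± 0.18 (edgeR adjusted p = 0.0092), where 32 of all genes passed. Nqo1, a quinone reductase induced by both AHR and NRF2, rose by 1.64 ± 0.20 and 1.66 ± 0.20 (edgeR adjusted p = 2.22e-06 and 1.11e-06). Ereg, a ligand of the epidermal growth factor receptor, fell by 1.86 (SE 0.38) in control pups on the log2 scale, or by 1.25 (SE 0.27) without control library 5. Its dam difference at 2 weeks was -1.79 ± 0.38 (edgeR adjusted p = 0.0541), and -1.18 ± 0.27 without control library 5 (edgeR adjusted p = 0.0631). It passed without periodontitis library 1 or 2 at 2 weeks or periodontitis library 5 at 7 weeks (edgeR adjusted p = 0.0471, 0.0199 and 0.0399). Of the 7 AHR targets edgeR called 0 and DESeq2 3 between dams at 2 weeks, where DESeq2 called 3.43% of all genes. An unadjusted p under 0.05 was found for 3, all lower in periodontitis pups, against 14.4% of all genes. Cyp1b1, at 1.87 to 2.44 CPM in group means, changed by 0.09 ± 0.33 and -0.38 ± 0.33, neither past the threshold in edgeR. Among the chaperones and other ARNT partners 3 of 7 rose and none fell in control pups and 4 rose and 1 fell in periodontitis pups. These counts are to be read against the same shares of all genes. Without control library 5 at 2 weeks 4 rose in each kind of pup. The numbers that fell were 0 and 2 in periodontitis pups without periodontitis library 4 or 5 at 7 weeks, and 1 in control pups without either control library 3 or periodontitis library 5 at 7 weeks. Hif1a, the hypoxia factor that pairs with ARNT, rose by 1.56 ± 0.26 and 1.83 ± 0.26.

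Of 23 NRF2 targets 19 rose and 2 fell with age in control pups, and 18 rose and 3 fell in periodontitis pups, with medians of 1.42 and 1.43. Of all genes 27.1% and 30.4% rose and 34.4% and 35.7% fell. Without control library 5 at 2 weeks 20 targets rose and 2 fell in control pups, and 19 rose and 3 fell in periodontitis pups. Ephx1, the microsomal epoxide hydrolase, rose by 4.11 ± 0.35 and 4.00 ± 0.35, and Ugdh, which makes the sugar donor for glucuronidation, by 2.07 ± 0.18 and 2.44 ± 0.18. Gclc, the catalytic subunit of the first step of glutathione synthesis, changed by 0.37 ± 0.30 and 0.62 ± 0.30 without passing in edgeR. Both changes passed without control library 5, at 0.90 ± 0.19 and 0.62 ± 0.18 (edgeR adjusted p = 0.00039 and 0.0042). In control pups at 2 weeks it was at 39.7 to 45.7 CPM in libraries 1 to 4 and at 136 CPM in library 5, the library in which Nfe2l2 was also high. Hmox1, heme oxygenase 1, went against the list: it fell by 1.62 on the log2 scale in control pups (SE 0.27) and by 2.88 in periodontitis pups (SE 0.28).

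Between dams at 2 weeks Hmox1 was at 11.60, 9.55, 10.55, 12.68 and 3.86 CPM in control pups and at 13.87, 14.21, 19.79, 20.57 and 21.997 CPM in periodontitis pups. These groups did not overlap, as held for 3 of the 23 NRF2 targets and 7.25% of all tested genes. The difference was 0.90 ± 0.26 (edgeR adjusted p = 0.118). Of the NRF2 targets 17 of 23 had lower estimates in periodontitis pups at 2 weeks. By edgeR 0 passed and 9 had an unadjusted p under 0.05 (2 higher and 7 lower, against 14.4% of all genes). DESeq2 called 4, where it called 3.43% of all genes. Without periodontitis library 2 at 2 weeks edgeR called 387 of all genes and 2 of these targets, both lower. Without control library 5 at 2 weeks it called 0 of them. Without both that library and periodontitis library 5 at 7 weeks it called 1 higher and 1 lower. The NRF2 partners rose in 4 of 11 cases in control pups, with none falling, and in 5 of 11 in periodontitis pups, with 1 falling. Of all genes 27.1% and 30.4% rose and 34.4% and 35.7% fell. In each kind of pup 7 of the 11 partners rose without control library 5 at 2 weeks, where 69.9% and 75.4% of all genes passed in either direction. Mafk, a small MAF protein that pairs with NRF2, rose by 1.23 ± 0.19 in each. Cul3, the scaffold of the ligase that KEAP1 recruits, rose in periodontitis pups (0.65 ± 0.23, edgeR adjusted p = 0.0188), with a change of 0.07 ± 0.23 in control pups that was 0.51 ± 0.09 without control library 5 (edgeR adjusted p = 6.77e-05). Rxra, the partner of PXR and CAR, rose by 1.23 ± 0.21 and 1.14 ± 0.21. Of its list of 15 genes 8 rose and 4 fell in control pups and 9 rose and 3 fell in periodontitis pups, to be read against the same shares. In each 11 rose without control library 5 at 2 weeks, and without control library 4 at 2 weeks 2 fell in control pups. Between dams at 2 weeks edgeR called 0 of these 15 genes and 0 of the 11 NRF2 partners. DESeq2 called 3 and 0. An unadjusted p under 0.05 held for 6 (2 higher) and 5 (2 higher), against 14.4% of all genes. The groups did not overlap for 2 and 5, against 7.25% of all genes. Nr0b2, of the 15, was higher by 0.96 (edgeR adjusted p = 0.0541), and by 0.81 ± 0.15 without control library 5 (edgeR adjusted p = 0.0332).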

How the data were processed

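PolyA RNA from small intestine of 20 pups was sequenced, and groups were taken from the labels. The authors deposited a gene table of expected counts from RSEM, all whole. The submitters' processing notes name cutadapt 4.8, FastQC 0.11.8, STAR 2.7.8a and RSEM 1.3.3, and list GRCh38 beside GRCm38. The annotation release and strandedness are not given in the sources used here, so reads of overlapping antisense genes could not be told apart. Rounding changed 0 values. Lines naming no mouse gene (4 of 55491) held 0 counts, and 55227 gene IDs were matched to GENCODE M21, which gave coordinates and exon lengths.

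Tests were run in edgeR 4.0.16 (R 4.3.3): filterByExpr with the 4 groups (17464 genes, at most 0.0838% of a library's counts removed), TMM scaling, a robust quasi-likelihood fit of 1 mean per group to 20 libraries (16 residual degrees of freedom) and Benjamini-Hochberg adjustment across every tested gene (threshold 0.05). The SE was worked back from the test, as the size of the log2 fold change over the root of F. Log2 CPM use a prior count of 2. Alternatives were DESeq2 1.42.0, its size factors, other filters, no robust estimation, the compared groups alone, the replicate number as a block, and leaving out libraries. Removal of mitochondrial genes was added after seeing the data. The members, gene lists and libraries left out were chosen with earlier results of these data known, and no list was tested as a set. The named genes were the 8 members, 10 fixed targets and partners, up to 4 called genes with the smallest p per list and comparison (or 2 where none passed), and the 3 genes most like each member; not every gene the rule selects is described. The procedure was tested on simulated data with changes between dams set in genes above 1 CPM. At 2 weeks edgeR recovered 11.9% of 1.5-fold, 44.8% of 2-fold and 100% of 4-fold changes. At 7 weeks it recovered 7.46%, 40.3% and 97.0%. A dam difference of 1.5 to 2 times would thus often be missed.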

Additional observations from a re-analysis of the deposited data

Results flagged for a closer look

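A library was listed where its gap to the nearest other library exceeded 0.71 of its group's range of 5. Of 32 gene and group combinations 8 were listed, where chance gives about 1 in 20. Control library 5 at 2 weeks accounts for 5 of them: Ahr at 47.2 CPM, Tiparp at 37.7 CPM and Nfe2l2 at 353 CPM lay above the other control libraries, and Nr1i2 at 21.1 CPM and Keap1 at 17.1 CPM lay below them. The 5 values come from 1 library and are not independent. At 7 weeks Nr1i3 was at 74.7 CPM in control library 2 against 64.1 to 67.0 CPM in the others, and at 77.8 CPM in periodontitis library 1 against 55.2 to 61.6 CPM. Keap1 was at 64.7 CPM in control library 1 against 76.5 to 80.8 CPM in the other control libraries at 7 weeks.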

How the results depend on the processing

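Alternative settings changed how many of all genes were called between dams more than they changed the 8 genes. With all libraries 5, 2 and 4 genes were called at 2 weeks, at 7 weeks and for the difference. DESeq2 called 599, 25 and 65. Its size factors in edgeR gave 0 at 2 weeks, no robust estimation 17, and the compared groups alone 0 at each age. Deviations of same-numbered libraries correlated at -0.40 to 0.29 over 10 pairs. The labels do not say what a shared number means, and such correlations cannot decide whether it marks a shared litter or batch. With the replicate block 0, 0 and 0 genes were called. Leaving out libraries gave 0 to 387 genes at 2 weeks, 0 to 32 at 7 weeks and 1 to 159 for the difference. It gave 0 to 1 of the 8 genes for the difference. That gene was Nr1i2, without both control library 5 at 2 weeks and periodontitis library 5 at 7 weeks. At 2 weeks 387 were called without periodontitis library 2, 149 without periodontitis library 5 at 7 weeks and 49 without control library 5.

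Of 1152 alternative values of the 8 genes 1106 kept direction and call and 31 reversed. Another 8 passed only in the alternative and 7 only in the main edgeR fit. Reversals were of small changes. Arnt with age in periodontitis pups was 0.034 by DESeq2 and 0.032 with its size factors, 0.0063 with the compared groups alone, 0.00088 without mitochondrial genes and -0.11 to 0.068 over libraries left out. Over libraries left out the dam difference at 2 weeks ran from -0.23 to 0.13 for Nr1i2, -0.16 to 0.17 for Nr1i3, -0.15 to 0.40 for Cyp1b1 and -0.21 to 0.078 for Rxra. Rxra there was -0.013 by DESeq2, -0.012 with its size factors and -0.000867 with a CPM filter. At 7 weeks it ran from -0.24 to 0.0029 for Ahr, -0.070 to 0.022 for Keap1, -0.28 to 0.029 for Tiparp, -0.30 to 0.057 for Abcb1a and -0.071 to 0.041 for Cul3. The difference between ages ran from -0.33 to 0.024 for Ahrr, -0.27 to 0.11 for Nr1i3, -0.24 to 0.12 for Nqo1 (-0.014 with no filter), -0.17 to 0.14 for Rxra and -0.41 to 0.36 for Gclc. With age in control pups Cyp1b1 ran from -0.055 to 0.30 and Cul3 from -0.033 to 0.51. The cause of these changes was not tested. Depth limits Ahrr and, at 2 weeks, Cyp1a1 most.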
